A study of Sus scrofa with 8 samples.

Results

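Coagulation factor VII (F7), thrombomodulin (THBD), the complement protease C1s (C1S) and the complement inhibitor CD59 were followed in whole blood of sows (Sus scrofa), 4 genes out of 2389 that could be named on the array. The members are all array probes, other than control spots, whose RefSeq transcript maps to 1 of these 4 pig symbols: 1 probe for F7, 3 for THBD, 2 for C1S and 1 for CD59, 7 probes of 43603. The genes were picked with the difference between pregnant and non-pregnant sows already known, so that difference is described here for each of them and not tested.

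The series compared 4 pregnant sows with 4 non-pregnant sows, all female and of the fifth parity, and the blood of both groups was drawn 14 days after insemination. Of the sows, 3 pairs were half-sibs and 1 pair was unrelated by the submitters' account, and which sows form a pair is not stated. Each sow gave 1 array, a single-colour Agilent design hybridised with Cy3-labelled cRNA, and replicates 1 and 3 of both groups lay on slide 1 and replicates 2 and 4 on slide 2. With 1 array a sow, differences between animals and between arrays cannot be told apart, and the number of arrays limits the precision.

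As background, blood clotting starts when factor VII in plasma meets tissue factor on cells outside the vessel, which leads through factor X to thrombin. Thrombomodulin is a receptor on endothelium and on monocytes that binds thrombin and turns it towards activating protein C, an anticoagulant. C1s is the protease of the first complement component that cleaves C4 and C2 in the classical pathway, and CD59 is a lipid-anchored protein of blood cells that blocks assembly of the membrane attack complex. Factor VII and most complement proteins of plasma are made mainly in the liver, so the RNA measured in blood cells need not follow the proteins in plasma.

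Levels are given as log2 of the scanner's processed signal minus the 75th percentile of the same array, so that 0 is a fairly bright spot and most members lie below it. A level is compared between arrays only at the same probe. The scanner marks a spot as well above background or not, and a probe passed the filter when all 4 spots of either group carried that mark. That held for 26476 of all probes and for 5 of the 7 probes here. Only the F7 probe (A_72_P165196) and 1 THBD probe (A_72_P440066) were well above background on all arrays, while C1S probe A_72_P442680 and THBD probe A_72_P375698 passed through the pregnant group and the CD59 probe through the non-pregnant group. A probe that passes through 1 group in this way is more likely to lie higher in it, so these counts say nothing about direction.

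The share of spots well above background ranged from 61.7% to 69.3% over the arrays, and the signal at the 75th percentile was 143 to 298 in pregnant and 176 to 248 in non-pregnant sows. The array of pregnant replicate 2 was the dimmest by that measure, and the lowest correlation between arrays was 0.870 with it and 0.946 without it. Markers of blood and other cell types, from 9 lists, count as measured where a probe passed the filter. All 34 measured markers were well above background on all 8 arrays, those of T cells, monocytes, neutrophils and platelets among them. So were 1703 of the 1817 named genes that passed the filter. The markers TTR, SERPINA1, CYP3A29 and CDH5 had probes that did not pass and are outside this count. The share of red cell RNA was not analysed here.

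F7 was the gene whose groups stood clear of each other. Its level was -2.07, -1.45, -2.71 and -1.94 in pregnant replicates 1 to 4, against -3.16, -3.37, -4.09 and -3.79 in non-pregnant replicates 1 to 4. All 4 pregnant sows thus lay above all 4 non-pregnant sows, and the gap between the lowest pregnant and the highest non-pregnant array was 0.45. The means were -2.04 ± 0.52 in pregnant and -3.60 ± 0.42 in non-pregnant sows (SD, n = 4 each), a log2 difference of 1.56 with an SE of 0.33, or 2.95-fold. Before scaling, the processed signal at this probe was 35.7 to 71.0 on pregnant arrays and 12.6 to 26.0 on non-pregnant arrays, so the groups did not overlap before scaling either. The scanner software had already removed background from this signal.

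The log2 difference of F7 was 1.23 on slide 1 and 1.89 on slide 2. On each slide both pregnant arrays lay above both non-pregnant ones. That follows from the separation over all arrays and adds nothing to it. Leaving out pregnant replicate 2 gave 1.36, the lowest value of any single omission, and leaving out pregnant replicate 3 gave 1.79, the highest. Groups failed to overlap, with the pregnant one higher, in 0.895% of all probes that passed the filter, and 0.472% of them had a larger difference than F7. F7 was chosen for this contrast, so these shares place it and do not test it. The scanner's own error estimate for the F7 spots was 10.6% to 20.0% of the signal. The value changed under normexp background correction, which was run with an offset of 50 added to every signal. Normexp gave -0.51 as planned, where its noise estimate ran from 0.93 to 815 between arrays. With spots of marked background left out of its fit it gave 0.50. An offset this close to the F7 signals shrinks their ratio by itself, and correction and offset were not run apart.

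**Figure D1:**
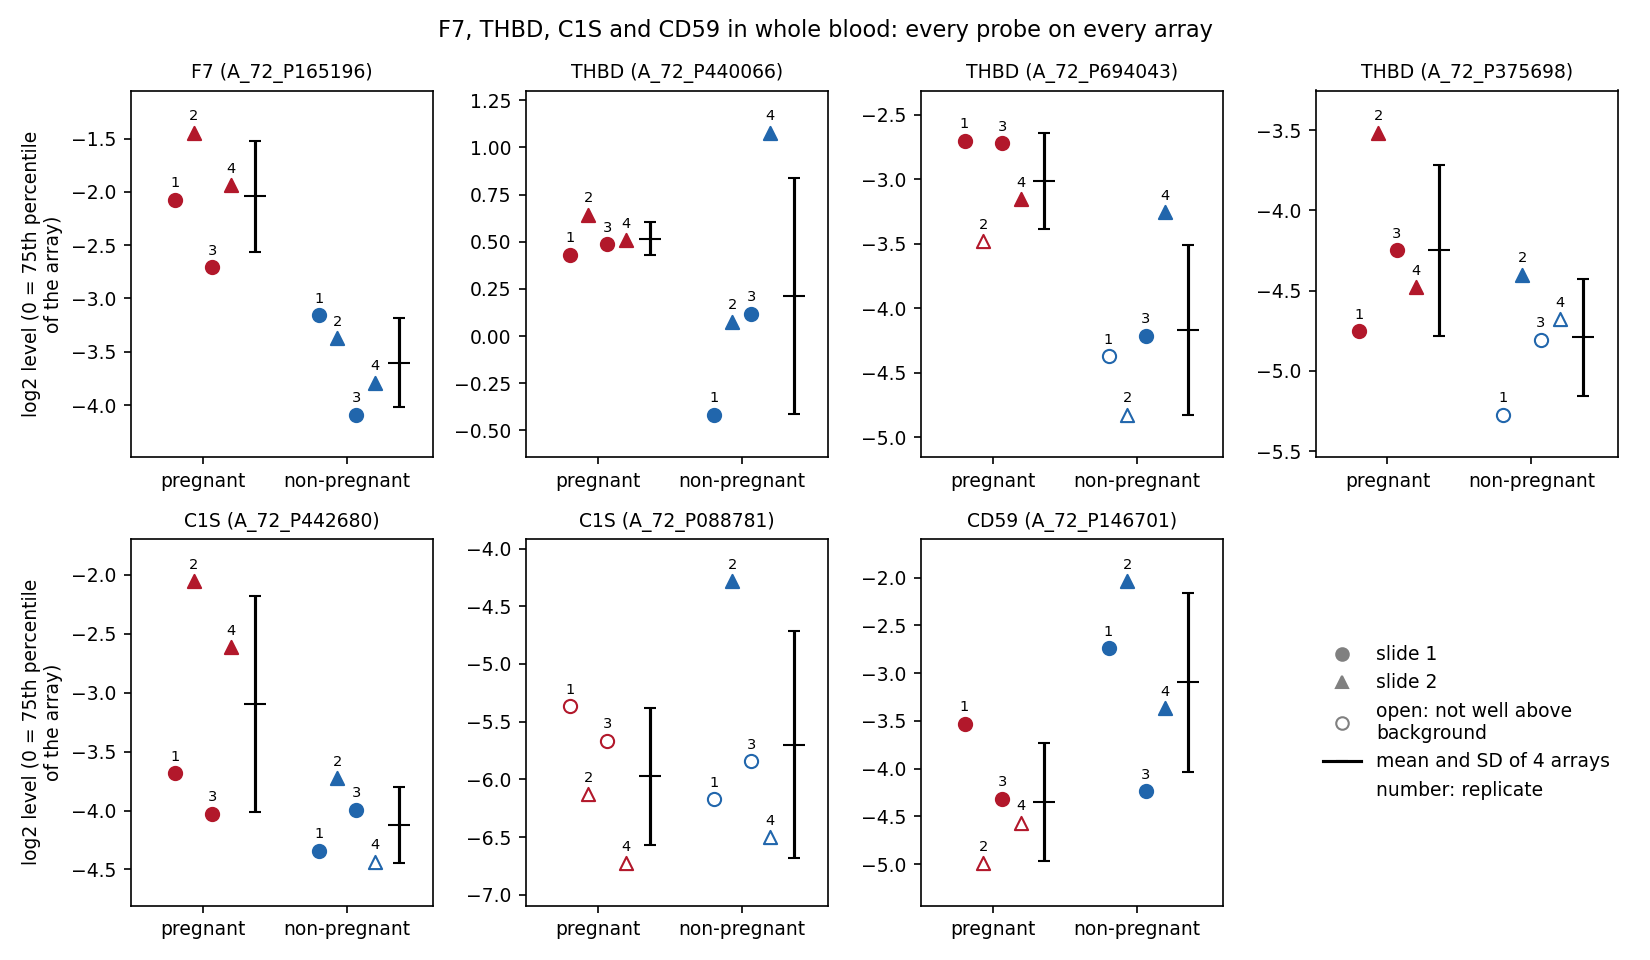
Log2 level of each probe of F7, THBD, C1S and CD59 (y axis, 0 is the 75th percentile of the array) on 4 pregnant (left) and 4 non-pregnant arrays (right). Numbers are replicates, circles are slide 1 and triangles slide 2, open symbols are spots not well above background, and bars show mean and SD; F7 is the panel without overlap, and the second C1S panel is almost all open symbols.

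Thrombomodulin was measured by 3 probes, and their differences pointed the same way with different sizes. At the probe well above background on every array (A_72_P440066), the level of THBD was 0.43, 0.64, 0.49 and 0.51 in pregnant replicates 1 to 4, against -0.42, 0.075, 0.12 and 1.08 in non-pregnant replicates 1 to 4. The pregnant sows lay within a narrow band (0.52 ± 0.090, SD, n = 4), whereas the non-pregnant sows spread on both sides of it (0.21 ± 0.63, SD, n = 4). The log2 difference was 0.30 with an SE of 0.32, smaller than its error, and was 0.61 on slide 1 and -0.0012 on slide 2. It was 0.093 without non-pregnant replicate 1 and 0.59 without non-pregnant replicate 4, the lowest and the highest sow.

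The other THBD probes were dim. Probe A_72_P694043 did not pass the filter, being well above background on 3 pregnant and 2 non-pregnant arrays. It read -2.70, -3.48, -2.72 and -3.16 in pregnant replicates 1 to 4 and -4.37, -4.83, -4.21 and -3.26 in non-pregnant replicates 1 to 4. There 3 of the 4 pregnant sows lay above all non-pregnant ones, and non-pregnant replicate 4 lay among the pregnant sows. The log2 difference was 1.15 with an SE of 0.38, 1.58 on slide 1 and 0.72 on slide 2. With normexp it was -0.71 as planned and 0.30 without spots of marked background.

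Probe A_72_P375698 carried the mark of well above background in all 4 pregnant sows but in only 1 non-pregnant sow, replicate 2. Its levels were -4.75, -3.52, -4.25 and -4.48 in pregnant replicates 1 to 4, against -5.27, -4.40, -4.81 and -4.68 in non-pregnant replicates 1 to 4. The groups overlapped, with 2 pregnant sows above all non-pregnant ones, and the log2 difference of 0.54 (SE 0.32) was 0.30 without pregnant replicate 2. With normexp it was -0.89 as planned and 0.034 without spots of marked background.

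No pair of THBD probes correlated past the threshold from sow to sow, which does not settle whether the probes agree. The dim probes lay near background on several arrays, and the permutation exchanged arrays freely across groups and slides. Over the 8 arrays, the bright probe correlated with A_72_P694043 at r = 0.66 and rho = 0.52 (exact permutation p = 0.0730 and 0.197, two-sided) and with A_72_P375698 at r = 0.51 and rho = 0.52 (exact permutation p = 0.180 and 0.197). The dim probes correlated with each other at r = 0.26 and rho = 0.17 (exact permutation p = 0.558 and 0.703), and at r = -0.36 with the group means removed (exact permutation p = 0.387, adjusted 0.516). Adjusted over 4 pairs of probes, these 3 having the C1S pair beside them, the smallest p for r was 0.292. Without the 2 arrays farthest from the median of the first probe, these r were 0.79, 0.61 and 0.051. Since no pair had both probes well above background on all arrays, all pairs were taken, a choice made after the values were seen, and each slide holds too few arrays for a correlation of its own.

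Monocytes, which carry thrombomodulin, were followed by their own markers. All 4 measured markers of 9 listed (CD14, CD163, LYZ and TLR4) had a positive log2 difference, with a median of 0.55, and none of them passed limma's test. Their summed level, in units of the 75th percentile, was 50.3 to 63.5 in pregnant sows, against 34.0 to 44.9 in non-pregnant sows, with no overlap. LYZ, the brightest of the 4 with a log2 difference of 0.64, carries this sum. Of all single probes that passed the filter, 1.58% had groups without overlap in either direction, and no such share was computed for sums. Endothelial markers, with PECAM1 and ENG measured of 9 listed, summed to 3.61 to 5.70 in pregnant and 3.43 to 6.23 in non-pregnant sows. These markers pointed opposite ways, with a log2 difference of -0.29 for PECAM1, which carries the sum, and 0.97 for ENG, and CDH5, which defines endothelium, did not pass the filter. The part of either cell type in the THBD values was not tested. In whole blood, fewer cells of a type and less RNA per cell cannot be told apart.

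C1S had 1 probe that passed the filter and 1 that read mostly background. At A_72_P442680, C1S was at -3.68, -2.06, -4.03 and -2.62 in pregnant replicates 1 to 4 and at -4.34, -3.73, -3.99 and -4.43 in non-pregnant replicates 1 to 4. Pregnant replicates 2 and 4, both on slide 2, were high, and pregnant replicate 3 lay inside the non-pregnant range. The means were -3.10 ± 0.92 in pregnant and -4.12 ± 0.33 in non-pregnant sows (SD, n = 4 each), a log2 difference of 1.03 with an SE of 0.49, or 2.04-fold. It was 0.31 on slide 1 and 1.74 on slide 2, and 0.68 without pregnant replicate 2. Array weights gave 0.27, and normexp -0.79 as planned and 0.19 without spots of marked background. Among the 5 probes that passed the filter, those of F7 and this one of C1S had a level in pregnant sows at least 2-fold above that in non-pregnant sows, as did 1.58% of all probes that passed. Both genes were chosen for this contrast, and the C1S probe passed through the pregnant group, so nothing is read from these counts.

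Pregnant replicate 2, the array with the highest C1S level, was also the highest for the summed level of platelet markers (3059, against 1352 to 2286 on the other arrays), which ITGB3 carries, and for DCN, a fibroblast marker (13.7, against 0.29 to 3.31). Of the 7 platelet markers measured 1 had a positive log2 difference, and the list's median was -0.27. Neutrophil markers summed to 45.8 to 218 in pregnant and 98.1 to 506 in non-pregnant sows, a sum carried by the gelatinase MMP9 with a log2 difference of -1.09. In that list 4 of 6 markers had a positive difference (S100A8 0.20, S100A9 0.17, LTF 0.40 and NPG4 0.98), and the median was 0.18. Pregnant replicate 2 was also the highest array for F7 (-1.45) and for THBD probe A_72_P375698 (-3.52), and the lowest for CD59 (-4.99). At the other THBD probes and the other C1S probe it was at neither end. The part of platelets, fibroblasts and neutrophils in the values of any member was not tested.

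The other C1S probe (A_72_P088781) was well above background on 0 pregnant arrays and on 1 non-pregnant array, replicate 2, where it stood at -4.28. Elsewhere it read -6.73 to -5.36 in pregnant and -6.50 to -5.84 in non-pregnant sows, with a scanner error of up to 100.1% of the signal. Its log2 difference of -0.27 (SE 0.57) had the opposite sign to the first probe and became 0.20 without non-pregnant replicate 2. The probes did not correlate past the threshold over the 8 arrays (r = -0.19 and rho = 0.12, exact permutation p = 0.653 and 0.793, adjusted 0.653 and 0.793). Without pregnant replicates 2 and 4, r was 0.85 (exact permutation p = 0.0153, adjusted 0.0611). With 1 probe mostly at background, these values do not settle whether the probes agree.

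Liver cells, the main source of factor VII and C1s in plasma, were looked for by their own transcripts. Of 10 hepatocyte markers listed, ALB, APOA1, TF and HPX passed the filter, and TTR, SERPINA1 and CYP3A29 had a probe that did not. The summed level of the 4 markers was 0.59 to 1.76 in pregnant and 0.69 to 1.02 in non-pregnant sows, so that the groups overlapped. The log2 difference was -0.010 for ALB, 0.27 for APOA1, 0.39 for TF and 0.29 for HPX, with a median of 0.28. The part of liver RNA in the F7 and C1S values was not tested.

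CD59 was the member that lay lower in pregnant sows. Its level was -3.53, -4.99, -4.32 and -4.56 in pregnant replicates 1 to 4, against -2.74, -2.04, -4.24 and -3.37 in non-pregnant replicates 1 to 4. The groups overlapped through non-pregnant replicate 3, which lay next to the pregnant sows, and 3 of the 4 pregnant sows lay below all non-pregnant ones. The means were -4.35 ± 0.61 in pregnant and -3.10 ± 0.94 in non-pregnant sows (SD, n = 4 each), a log2 difference of -1.25 with an SE of 0.56, or 0.419 times the non-pregnant level.

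The probe was dimmest where CD59 was lowest: it was well above background on 2 of 4 pregnant arrays (replicates 1 and 3) and on all 4 non-pregnant arrays, so the values of pregnant replicates 2 and 4 lie near the limit of detection. The log2 difference was -0.43 on slide 1, where the groups overlapped, and -2.07 on slide 2, where they did not. Omitting non-pregnant replicate 3 gave -1.64 and omitting non-pregnant replicate 2 gave -0.90, the limits over all single omissions, and normexp without spots of marked background gave -0.34. Of all probes that passed the filter, 0.544% were at least 2-fold lower in pregnant sows and 0.230% had a lower difference than CD59. CD59 was chosen for this contrast and its probe passed through the non-pregnant group, so these shares do not test it.

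**Figure D2:**
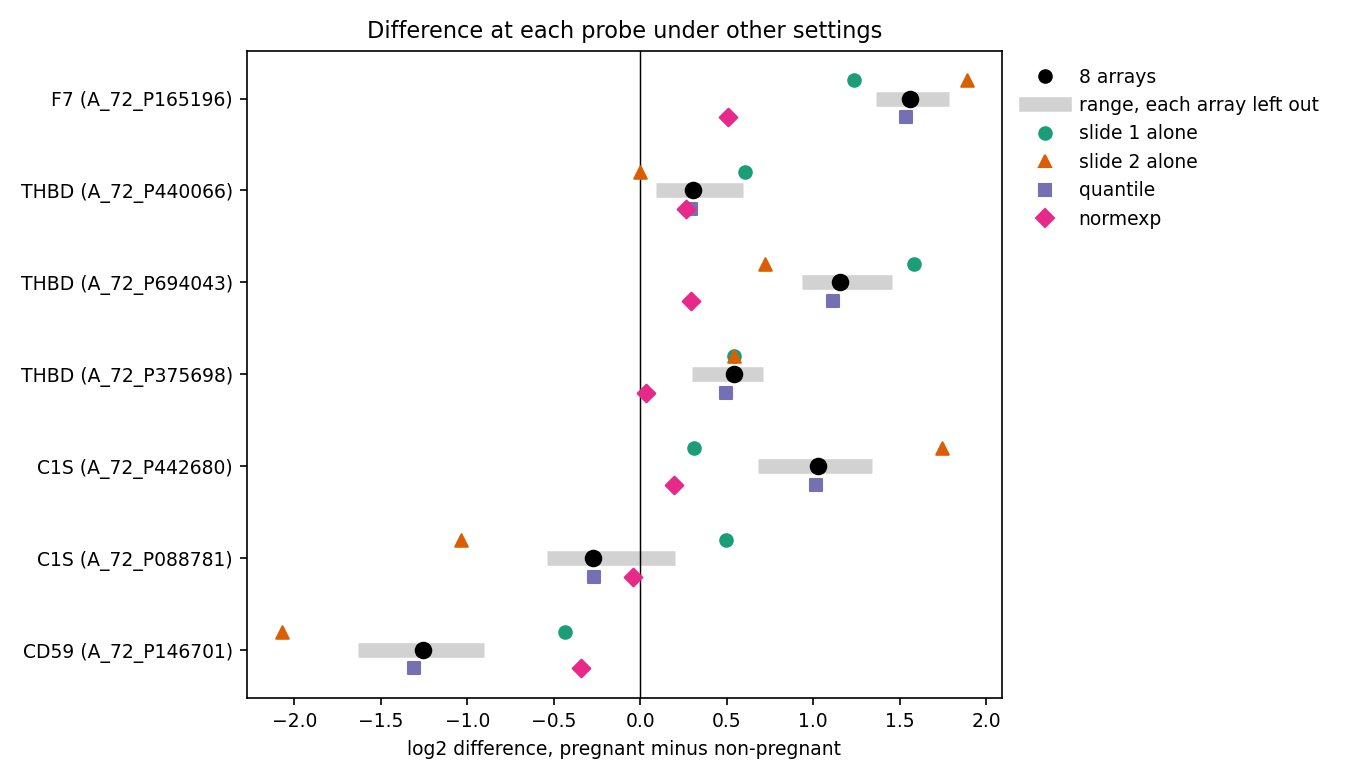
Log2 difference, pregnant minus non-pregnant (x axis), of each probe (rows) over 8 arrays (black), with each array left out (grey bar, lowest to highest), on each slide alone, with quantile normalization and with normexp background correction whose fit leaves out spots of marked background. Under the settings drawn, F7, C1S probe A_72_P442680 and the dim THBD probes are above 0 and CD59 is below 0. C1S and CD59 differ most between slides, and this normexp, with its offset of 50, brings dim probes towards 0. Normexp on all spots, as planned, is not drawn. It gave -0.51 for F7, -0.79 for C1S probe A_72_P442680, and -0.71 and -0.89 for the dim THBD probes.

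Across the whole array, limma called 0 of 26476 probes (0%) at an adjusted p under 0.05, with 604 at an unadjusted p under 0.05 (2.28%). The rest of both pathways was set beside the members from lists of 43 coagulation and fibrinolysis genes and 46 complement genes. Of these, 10 and 15 were measured and 0 and 0 passed limma's test, in either direction, with 0 and 0 at an unadjusted p under 0.05. None of these genes had groups that were free of overlap (0 of 10 and 0 of 15), where 1.58% of all probes did.

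In coagulation and fibrinolysis, 6 of the 10 other genes had a positive and 4 a negative log2 difference, with a median of 0.021. Over all 1817 named genes 44.1% were positive and the median was -0.036. The sign of the list's median depended on single arrays: it was -0.15 (2 of 10 positive) with pregnant replicate 2 left out, -0.033 with non-pregnant replicate 4 left out and -0.0023 with non-pregnant replicate 3 left out. It was also negative on slide 1 alone (-0.058) and with quantile normalization (-0.025). The authors' deposited table, whose values lie close to the quantile ones, gave -0.015. The genes of smallest unadjusted p pointed both ways. Factor XII (F12), which starts the contact pathway, had a mean level of -0.035 in pregnant sows, against 0.39 in non-pregnant sows, a log2 difference of -0.42 (SE 0.30, limma adjusted p = 1.00). Factor V (F5), the cofactor of factor Xa, differed by -0.23 (SE 0.35), with -0.73 on slide 1 and 0.26 on slide 2, and by 0.0053 without non-pregnant replicate 1.

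From fibrinolysis, urokinase (PLAU), which activates plasminogen, had a mean level of 0.86 in pregnant sows, against 0.44 in non-pregnant sows, a log2 difference of 0.42 (SE 0.35, limma adjusted p = 1.00), and its second probe differed by 0.40. Without pregnant replicate 4, PLAU differed by 0.15.

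The genes next to F7 and THBD in their reactions had log2 differences smaller than their errors. Factor X (F10), the substrate of factor VIIa, had a log2 difference of 0.57 with an SE of 0.88, which was -0.34 without pregnant replicate 2. TFPI, which inhibits the complex of factor VIIa and tissue factor, differed by 0.18 (SE 0.37). PROCR, the receptor that presents protein C to thrombomodulin, differed by 0.0061 (SE 0.73). Tissue factor itself (F3) and protein C (PROC) had probes that did not pass the filter. These 5 genes were picked by their place in the pathway after the values were seen.

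In complement, 12 of the 15 other genes had a positive and 3 a negative log2 difference, with a median of 0.11. The count of positive genes was 8 on each slide alone. It was also 8 when pregnant replicate 1 was omitted (median 0.010) and when non-pregnant replicate 2 was omitted (median 0.034). Vitronectin (VTN), which like CD59 hinders the terminal complex, had a mean level of -1.50 in pregnant sows, against -2.16 in non-pregnant sows, a log2 difference of 0.65 (SE 0.52, limma adjusted p = 1.00), and its second probe differed by 0.11. Without pregnant replicate 2 the first probe differed by 0.29. CD46, a membrane cofactor for cleavage of C3b and C4b, differed by -0.40 (SE 0.36). Component C5, the source of C5a and C5b, differed by -0.42 (SE 0.45), a value of -0.049 without pregnant replicate 1. The C5 probe was dim, with a mean level of -3.62 in pregnant and -3.20 in non-pregnant sows. It was well above background on 3 pregnant and 4 non-pregnant arrays, so it passed through the non-pregnant group, where it was higher.

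FCN1, a lectin of monocytes that starts the lectin pathway, had a mean level of 3.75 in pregnant sows, against 3.35 in non-pregnant sows. Its log2 difference of 0.40 (SE 0.39, limma adjusted p = 1.00) was 1.41 on slide 1 and -0.61 on slide 2. The substrates of C1s, C2 and C4A, differed by 0.21 (SE 0.36) and 0.11 (SE 0.22), and SERPING1, which inhibits C1s, by 0.12 (SE 0.37). The second probes differed by more, 0.42 for C2 and 0.56 for SERPING1, and C4A had no second probe that passed. CD55, the other lipid-anchored complement inhibitor of blood cells, had a mean level of 4.21 in pregnant sows, against 4.15 in non-pregnant sows. Its difference was 0.063 (SE 0.28) and that of its second probe 0.0053, where CD59 stood at -1.25. C2, C4A, SERPING1 and CD55 were likewise singled out after their values were seen.

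The genes whose levels ran most like each member over the 8 arrays were ranked by Pearson's r among the named genes with a mark of well above background on all 8 arrays, 1702 for F7 and THBD and 1703 for C1S and CD59. These r are the highest of a ranking and come with no p. The points share slide and array brightness, and each member was taken at its probe that passed the filter with the highest mean.

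For F7 these were CDK5R1 (r = 0.93), an activator of the kinase CDK5, DCT (r = 0.90), an enzyme of melanin synthesis, and WDTC1 (r = 0.86). Their own log2 differences were 0.86, 1.99 and 0.76. With the group means removed, the r with F7 were 0.77, 0.45 and 0.70, so that DCT followed F7 less closely within the groups. Without pregnant replicate 2 and non-pregnant replicate 3, the arrays farthest from the median of F7, they were 0.92, 0.95 and 0.90.

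For C1S the list was WDTC1 (r = 0.93), the cell adhesion gene CDH1 (r = 0.93) and RETNLB (r = 0.92), a resistin-like protein. All 3 were highest on pregnant replicate 2, as C1S was. Without pregnant replicates 2 and 4 the r were 0.46, 0.88 and 0.75.

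For THBD the list was RABGGTA (r = 0.94), a subunit of the enzyme that prenylates Rab proteins, the calcium channel ORAI1 (r = 0.90) and ITPK1 (r = 0.89), an inositol phosphate kinase. Their log2 differences were small (0.13, 0.16 and -0.027). All 3 were lowest on non-pregnant replicate 1 and highest on non-pregnant replicate 4, the sows at both ends of THBD, and without these 2 arrays the r were 0.79, 0.41 and 0.61.

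For CD59 the list was led by CD79A (r = 0.95), a chain of the B cell receptor, followed by SERPINB9 (r = 0.93), an inhibitor of granzyme B, and the transcription factor MYC (r = 0.89). With the group means removed the r with CD59 were 0.92, 0.89 and 0.78, and without non-pregnant replicates 1 and 2 they were 0.90, 0.96 and 0.86. CD79A, itself a B cell marker, had a log2 difference of -0.34. T cell markers, 7 measured of 8 listed and all with a negative log2 difference, summed to 34.2 to 43.9 in pregnant and 42.7 to 54.2 in non-pregnant sows. The part of either cell type in the CD59 values was not tested.

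**Figure D3:**
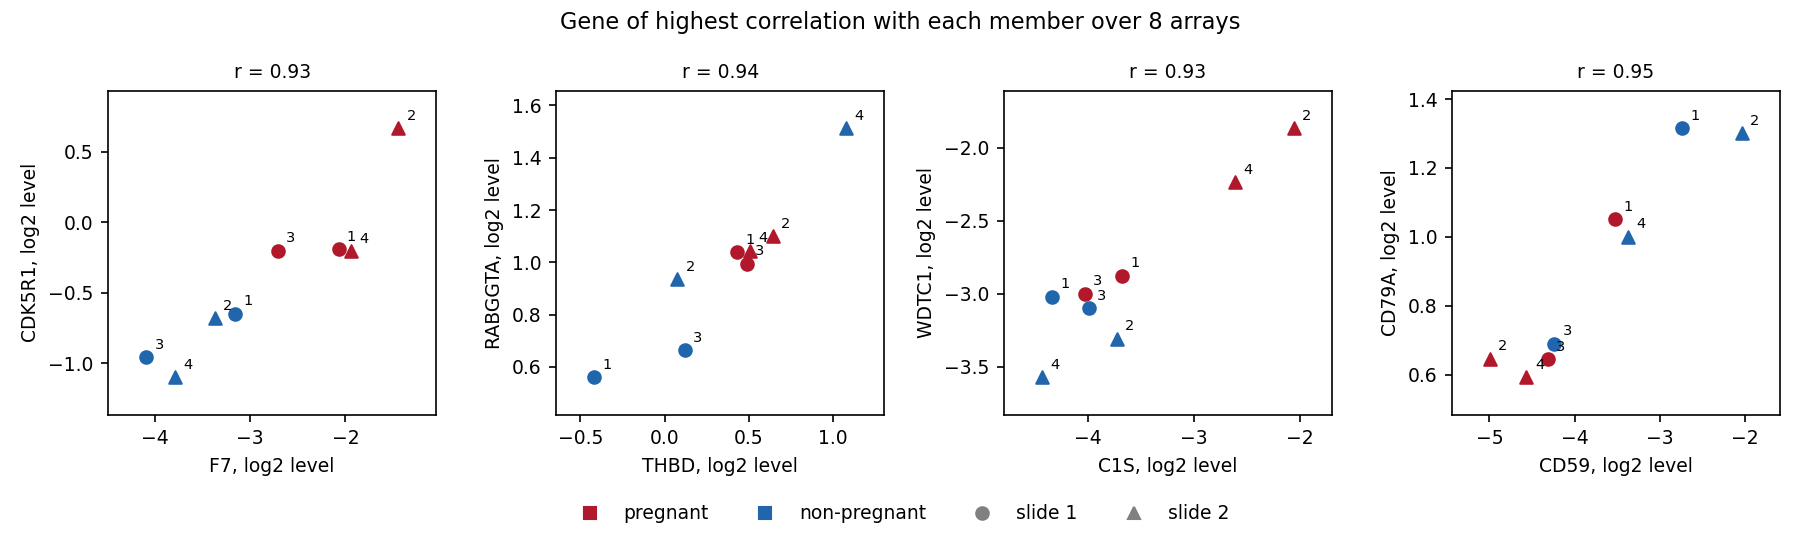
Log2 level of each member (x axis) against the gene of highest Pearson's r with it (y axis) on 4 pregnant (red) and 4 non-pregnant arrays (blue), with replicate numbers, circles for slide 1 and triangles for slide 2. CDK5R1 and F7 split by group, CD79A and CD59 mix pregnant and non-pregnant arrays along 1 line, and pregnant replicates 2 and 4 set the range of C1S.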

How the data were processed

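For each array the authors deposited the scanner output of Feature Extraction, version 10.7.3.1 in the headers and 10.7 in the submitters' processing notes. The processed signal in it is a linear intensity from which, per the file headers, background and a spatial trend were removed, with no scaling between arrays. A deposited table of log2 values, whose software and centring are not given in the sources used here, served as an alternative. It has the same direction as the signal (r of at least 0.99895 per array). Every column has the same quartiles (2.19 and 7.76) and median (5.03), as quantile normalization gives. Its F7 difference was 1.54, as with quantile normalization here, so these alternatives are not separate checks.

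Control and outlier-marked spots were left out, which dropped 215 probes, and log2 signals were taken relative to each array's 75th percentile. RefSeq accessions named 5461 of 5779 probes through a table of the Sscrofa11.1 assembly; a gene's probe is the brightest that passed the filter. limma 3.58.1 (lmFit, eBayes; R 4.3.3) compared the groups over all probes, two-sided, with Benjamini-Hochberg adjustment. In simulated data for the 26476 probes it recovered 0% of 2-fold, 68% of 4-fold and 88% of 8-fold changes. Python 3.11.15 with pandas 2.3.3, scipy 1.17.1 and matplotlib 3.10.9 did the rest.

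Members and lists were chosen with earlier results of these data known. Named besides the members are the 4 genes of smallest unadjusted p per pathway list and the 3 of highest r per member; exceptions are stated, and some items these rules select are not reported here. Sequences were not used here.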

Additional observations from a re-analysis of the deposited data

How the results depend on the processing

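The counts of calls over all probes and in both pathway lists were 0 under all alternatives run, the replicate block included, with 324 to 2197 probes at an unadjusted p under 0.05 (794 with the replicate block) and at most 2 coagulation genes (with array weights) and 1 complement gene (with array weights, on either slide alone and without pregnant replicate 4). With an array left out, log2 differences ran from 1.36 to 1.79 for F7, 0.68 to 1.34 for C1S probe A_72_P442680, -0.54 to 0.20 for A_72_P088781 and -1.64 to -0.90 for CD59, and for THBD from 0.093 to 0.59 (A_72_P440066), 0.93 to 1.46 (A_72_P694043) and 0.30 to 0.71 (A_72_P375698). Slides 1 and 2 alone gave 0.31 and 1.74 for C1S and -0.43 and -2.07 for CD59, and array weights gave 1.05 for F7 and 0.27 for C1S. Normexp on all spots, as planned, turned the sign of F7 (-0.51), C1S (-0.79) and the dim THBD probes (-0.71 and -0.89); its noise estimate was 0.93 to 815 between arrays, and on 6 arrays 2 to 20 spots lay more than 20 below their own background, all marked by the scanner as background outliers. With marked spots left out of the fit, an alternative added after seeing the data, it was 0.49 to 0.92, and the log2 differences were 0.50 for F7, 0.30 and 0.034 for the dim THBD probes, 0.19 for C1S and -0.34 for CD59. The offset of 50, close to or above these signals, shrinks their ratios. The correlation of the dim THBD probes was -0.36 with group means removed, and that of the C1S probes 0.85 without 2 arrays; the cause was not tested. The other 49 of 64 member differences, arrays left out aside, moved by less than 1 SD. The labels do not tie the replicate numbers to the pairs of sows. Deviations of same-numbered sows correlated at 0.22, 0.48, 0.43 and -0.12 for numbers 1 to 4, and not every sow correlated best with its own number; with 1 pair unrelated by design, these values do not settle whether the numbers mark the pairs. The block leaves log2 differences as they are. Most members are dim, and spots not well above background limit what their folds can show.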
